A study of Mus musculus with 8 samples.

Results

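The cytosolic ribosomal protein (RP) genes are the genes whose symbols begin with *Rpl* or *Rps* followed by a number, together with *Rplp0*, *Rplp1*, *Rplp2* and *Rpsa*. They were chosen by symbol alone, without the *Rps6* kinases and without names that mark a pseudogene, and 87 of the 24052 gene symbols of the RNA-Seq tables qualified. Of these, 31 encode proteins of the small (40S) subunit, 43 proteins of the large (60S) subunit and 3 proteins of the P stalk. A further 8 were classed as paralogs of other RP genes, although *Rps4l* among them is annotated as a pseudogene. The remaining 2, *Rps19bp1* and *Rpl7l1*, carry the name but do not encode a core protein of the mature ribosome.

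Each cytosolic ribosome holds a single copy of most of these proteins, so their mRNAs are produced in similar amounts and are among the most abundant of a growing cell. In mammals, many of them begin with a cytosine followed by a run of pyrimidines, the 5′ terminal oligopyrimidine (TOP) motif, through which the mTOR pathway sets their translation. In the thymus, medullary epithelial cells (mTECs) show self-antigens to developing thymocytes, and AIRE is the transcriptional regulator that releases many of these antigens.

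RNA-Seq libraries were made from mTEC 3.10 (WT), a medullary thymic epithelial cell line of the C57BL/6 strain, and from E6, a clone derived from it by editing *Aire* exon 3 with Crispr-Cas9. There were 8 libraries, 2 for each combination of cell type and state (before or after adhesion of thymocytes), made to ask how the mutation and contact with thymocytes alter the transcriptome. After adhesion means 12 h of co-culture with thymocytes of C57BL/6 mice at 50 per mTEC, after which the attached thymocytes were washed off and the mTECs collected. All samples had 2 passages per the labels. The labels give a culture time of 24 h for 3 libraries, namely replicate 2 of WT after adhesion and the E6 libraries numbered 1, and of 12 h for the remaining 5. E6 is a single clone, so that the *Aire* mutation and other differences of the clone cannot be told apart. The labels give its genotype as Aire +/-, whereas the study describes mutations in both alleles. The protocol text of E6 before adhesion mentions thymocytes, against the titles and source names, which were followed. By these labels, the 2 libraries of a condition differ in culture time in every condition except WT before adhesion. Nothing else states that they came from separate cultures. The p-values thus measure only the spread between these libraries, which may be technical or hold the difference in culture time.

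*Aire* itself had 0 counts in 6 libraries and 3 counts in replicate 2 of WT after adhesion and in replicate 2 of E6 after adhesion, so that its level does not check the genotype labels. The libraries held 13506610 to 20145154 counts on genes. CPM are counts scaled to the total of the library for marker genes and summed lists, and to that total adjusted by the TMM method, which assumes that most genes stay level between libraries, for single genes of the ribosome and of the gene lists. The epithelial marker *Epcam* was at 545 to 603 CPM in all libraries, while *Krt5* was at 0.200 to 1.04 CPM. Replicate 1 of WT after adhesion stood apart, with 66.7% of its alignments on genes against 75.7% to 78.8% in the others, and its counts fell by 0.48 on the log2 scale for each 10% of GC content. It had 17.5% of its alignments at more than 1 place in the genome, against 11.7% to 12.7% in the others. Its TMM factor of 0.9377 was the lowest, against 0.9873 to 1.0273 in the others, and main counts and medians that include it are also given without it. The summed level of the 15 thymocyte markers listed in the tables was 1.46 to 3.24 CPM before adhesion, 20.3 and 27.7 CPM in WT after adhesion and 126 and 157 CPM in E6 after adhesion. Before adhesion, the thymocyte markers *Cd247*, *Cd8b1* and *Dntt* were at 0 in all 4 libraries.

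Most RP genes were abundant, and 79 of the 87 had enough counts for testing. These comprised all 31 genes of the 40S subunit, 40 of the 43 genes of the 60S subunit, the 3 genes of the P stalk, 3 of the 8 paralogs and the 2 genes that are RP genes only in name. *Rpl26*, a 60S gene, and the paralogs *Rpl10l*, *Rpl39l* and *Rps27rt* were listed at 0 in every library. *Rpl30* had 11 counts in all 8 libraries together, *Rpl34* had 49, *Rpl3l*, the paralog of *Rpl3* known from striated muscle, had 14 and *Rps4l* had 2. *Rps27* was tested but had only 0.922 to 2.65 CPM. *Rpl26*, *Rpl30*, *Rpl34* and *Rps27* encode core proteins of the ribosome, and their counts should not be read as their mRNA levels. Alignments to more than 1 place in the genome were set apart and counted for no gene, and many RP genes have near-identical retrocopies. The counts of members with such copies are therefore uncertain.

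The levels of the core genes were close to each other when set per length. Over the 74 tested genes of both subunits and the P stalk, the median was 746 CPM per kb of coding sequence, with quartiles of 540 and 1051, and 58 genes lay within 2-fold of the median. On this scale, *Rpl41*, which encodes the shortest RP with a coding sequence of 75 bases, stood highest at 5802, followed by *Rplp1* at 2638 and *Rpsa* at 1985. Among all 79 tested genes, the lowest were *Rps27* at 6.91, *Rps19bp1* at 38.7 and *Rpl22l1* at 66.6 CPM per kb. Of these, only *Rps27* is a core gene, and the next lowest core genes were *Rps19* at 313 and *Rpl15* at 332. Per kb of the whole annotated transcript, *Rplp1* at 1808, *Rpl4* at 1271 and *Rpl32* at 1244 CPM stood highest, and *Rps15a* at 40.4 joined *Rps27* at 5.05 and *Rps19bp1* at 19.8 among the lowest. *Rps15a* had 536 CPM per kb of coding sequence, and its place at the bottom thus depended on the annotated transcript length. *Rpl41* had 996 CPM per kb of the whole transcript, so that its place at the top depended on the use of the coding length.

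RP genes took a smaller share of the counts in E6 than in WT before adhesion. The 87 genes held 4.38% and 4.31% of the counts on genes in WT before adhesion, and 3.36% and 3.42% in E6 before adhesion. After adhesion, the share was 2.51% and 4.51% in WT and 3.16% and 3.09% in E6. The half-width of the 95% Wilson interval was at most 0.0108 percentage points, for counting error only. The means were 4.35% ± 0.0462 (SD, n = 2) in WT and 3.39% ± 0.0458 in E6 before adhesion, so that this difference exceeded the spread between replicates many times over. After adhesion, WT had 3.51% ± 1.41 and E6 3.12% ± 0.0503, and the E6 libraries lay between the WT libraries. A share of a bulk sample cannot tell fewer cells of a type from less RNA per cell. The 77 mitochondrial RP genes, which serve the separate ribosome of the mitochondrion, held 0.239% to 0.289% in the 8 libraries.

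**Figure D1:**
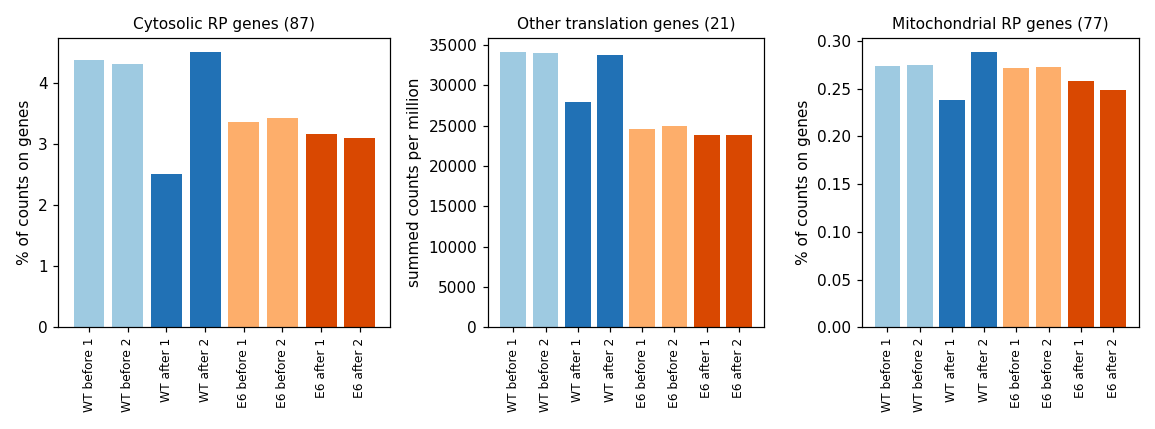
Share of the counts on genes held by 87 cytosolic RP genes (left, in %), summed CPM of 21 other translation genes (middle) and share held by 77 mitochondrial RP genes (right, in %), with 1 bar per library, coloured by condition. Replicate 1 of WT after adhesion (2.51%) is the lowest bar on the left, and the 3 other WT libraries (4.31% to 4.51%) are above all E6 libraries (3.09% to 3.42%).

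Relative to the mean of WT before adhesion, the median log2 difference over the 79 tested genes was -0.38 and -0.32 in the libraries of E6 before adhesion and -0.49 and -0.53 in those of E6 after adhesion. In these 4 libraries, 73 to 78 of the genes lay below 0. The libraries of WT after adhesion had medians of -0.73 and 0.03, with 78 and 34 genes below 0, and thus differed from each other more than either E6 pair did. The medians over all tested genes were between -0.00 and 0.01 in the 6 libraries.

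**Figure D2:**
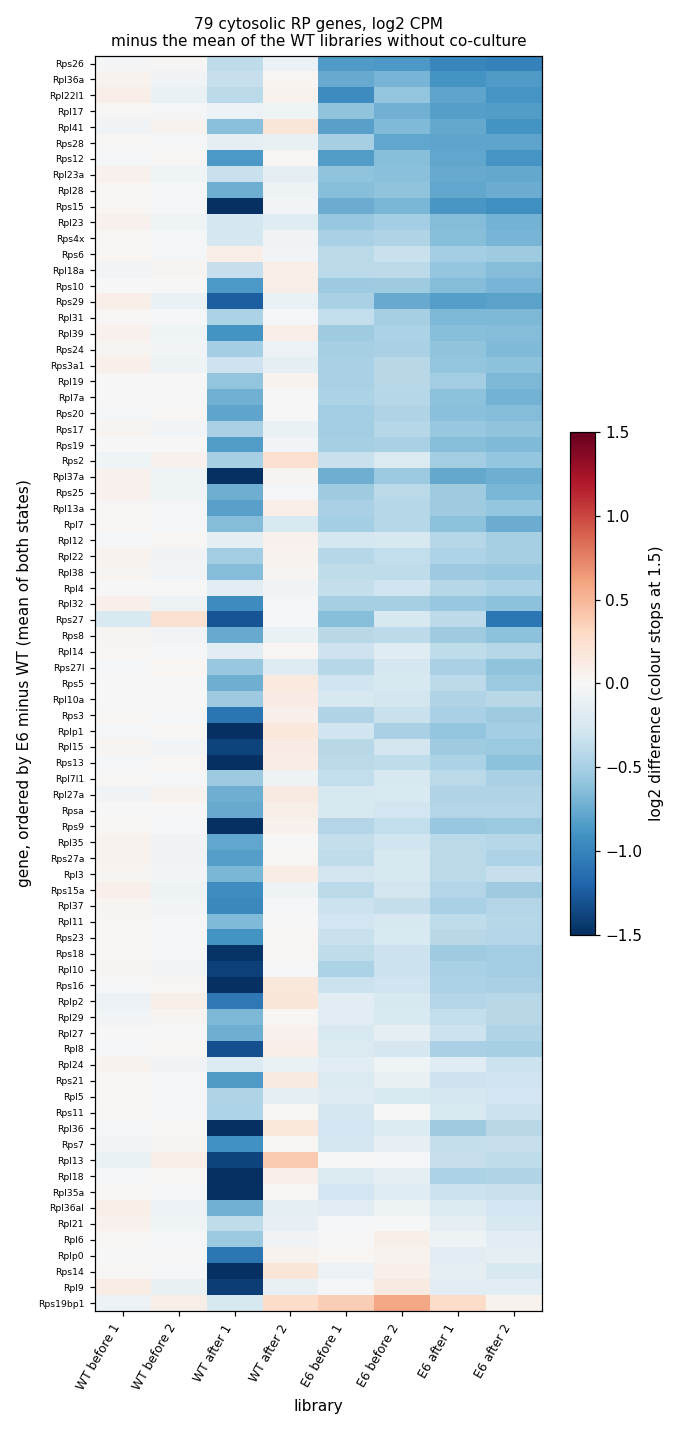
Log2 CPM of 79 RP genes (rows, ordered by the difference of E6 and WT averaged over both states) in 8 libraries (columns), minus the mean of the WT libraries before adhesion, with blue below 0 and red above 0. Blue covers the 4 E6 columns (73 to 78 genes below 0) and the column of replicate 1 of WT after adhesion (78 genes), whereas replicate 2 of WT after adhesion has 34 genes below 0.

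E6 was compared with WT before adhesion, where no library stood apart. Of the 79 tested genes, 75 had a log2 fold change (FC) below 0, with a median of -0.35 (a median FC of 0.782), whereas 50.2% of all 11672 tested genes were below 0, with a median of -0.00. Both E6 libraries were below both WT libraries for 70 of the genes (88.6%), against 35.5% of all tested genes. A gene was called when its Benjamini-Hochberg adjusted p (false discovery rate, FDR) from edgeR's quasi-likelihood test was below 0.05 and its FC reached 1.5. On these terms, 5 of the 79 genes (6.33%) were lower in E6, against 2.56% of all tested genes, and 0 were higher (also 0 by DESeq2), against 2.45%. At an unadjusted p under 0.05, 19 were lower and 1, *Rps19bp1*, was higher, together 25.3% of the members against 21.6% of all tested genes.

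The number of calls depended on the spread between libraries, which the test shared over all 4 conditions, including the unlike pair of WT after adhesion. That pair enters this comparison only through the spread. Without its replicate 1, 68 of the 79 genes (86.1%) were lower at an FDR under 0.05 by edgeR and 1 was higher, with 44.5% of all tested genes called in either direction, and the counts were the same without its replicate 2, with 44.6% of all tested genes called. With the FC limit, 12 were lower and 0 higher (15.2%, against 12.9% of all tested genes). When any library of WT before adhesion or of either E6 condition was left out instead, 0 genes were called.

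The 31 genes of the 40S subunit were all below 0 in this comparison (*Rps14* only at -0.00), with a median of -0.40, as were 38 of the 40 genes of the 60S subunit. The largest fall was that of *Rps26*, a 40S protein near the exit of the mRNA channel. Its level was 677 and 692 CPM in WT before adhesion, 526 and 646 in WT after adhesion, 380 and 377 in E6 before adhesion and 348 and 338 in E6 after adhesion. All 4 E6 libraries were thus below all 4 WT libraries. In E6 before adhesion it fell by 0.85 on the log2 scale (SE 0.13, FDR = 0.0153 by edgeR).

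*Rps28*, another protein of the 40S subunit near the mRNA exit, had 243 and 238 CPM in WT before adhesion, 219 and 222 in WT after adhesion, 170 and 140 in E6 before adhesion and 138 in each library of E6 after adhesion. No E6 library reached a WT library, although the E6 libraries before adhesion differed from each other. It fell by 0.63 on the log2 scale (SE 0.12, FDR = 0.0314 by edgeR) in E6 before adhesion.

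Among the genes of the 60S subunit, *Rpl36a*, whose protein lies where the spent tRNA leaves the ribosome, had 157 and 147 CPM in WT before adhesion, 120 and 155 in WT after adhesion, 89.5 and 93.4 in E6 before adhesion and 81.2 and 84.0 in E6 after adhesion. *Rpl17*, whose protein lines the tunnel through which the new peptide leaves, had 550 and 538, 513 and 519, 358 and 330, and 306 and 304 CPM in the same order. The WT and E6 libraries did not overlap for either gene. Their log2 FC before adhesion was -0.73 for *Rpl36a* (SE 0.14, FDR = 0.0306 by edgeR) and -0.66 for *Rpl17* (SE 0.11, FDR = 0.0184 by edgeR). *Rpl23a*, whose protein sits at the tunnel exit, fell by 0.62 (SE 0.12, FDR = 0.029 by edgeR), with 356 and 387 CPM in WT and 240 and 244 CPM in E6 before adhesion. *Rpl23*, whose protein faces the 40S subunit, passed the FDR but not the FC limit, with a log2 FC of -0.54 (SE 0.11, FDR = 0.0395 by edgeR).

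**Figure D3:**
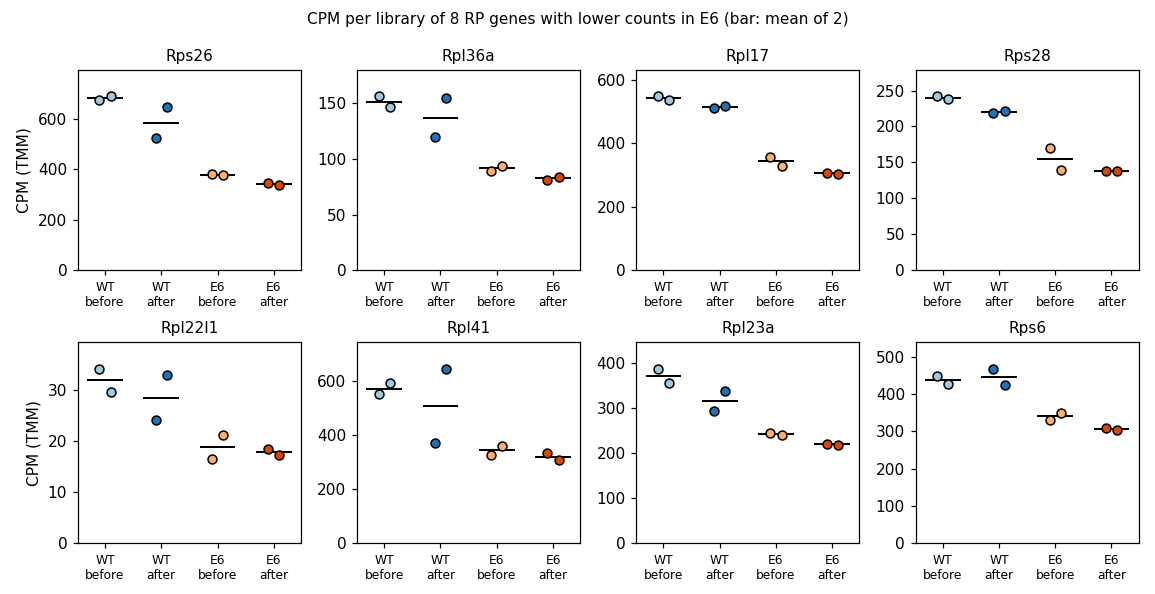
CPM (scaled by the TMM method) of 8 RP genes in each library, as points, with the mean of the 2 libraries of a condition as a bar. For *Rps26*, the WT libraries lie between 526 and 692 CPM and the E6 libraries between 338 and 380 CPM, and the WT and E6 points are separate in every panel on this scale, though not for *Rpl41* on the library total.

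The TOP motif, the feature RP genes are best known for, lies at the very start of the mRNA, which was not determined here. A pyrimidine run near an annotated start therefore need not be a TOP motif, and its absence leaves the motif undecided. Such runs are marked, where present, in the start sequences of 8 RP genes, of which some fell in E6 and others did not. The first 6 were lower in E6 than in WT in a comparison of the cell types, and the last 2, *Rpl6* and *Rplp0*, had log2 FCs of 0.04 and 0.04 before adhesion. Each line holds 30 bases of the RefSeq promoter table on GRCm38.p6, read 5′ to 3′ along the gene, from 10 bases before the annotated start to 20 bases from it on. Capitals mark a C followed by at least 4 pyrimidines, where this run begins within 10 bases of the start.
Rps26, chr10:128626487-128626516, minus strand: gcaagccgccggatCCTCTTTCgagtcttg
Rps6, chr4:86857348-86857377, minus strand: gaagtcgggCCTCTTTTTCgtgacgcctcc
Rps28, chr17:33824543-33824572, minus strand: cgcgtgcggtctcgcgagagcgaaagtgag
Rpl36a, chrX:134585644-134585673, plus strand: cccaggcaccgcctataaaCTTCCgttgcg
Rpl41, chr10:128549149-128549178, minus strand: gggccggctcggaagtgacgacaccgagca
Rpl22l1, chr3:28805498-28805527, plus strand: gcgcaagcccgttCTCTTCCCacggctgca
Rpl6, chr5:121204491-121204520, plus strand: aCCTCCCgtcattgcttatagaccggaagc
Rplp0, chr5:115559457-115559486, plus strand: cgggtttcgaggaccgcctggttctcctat
The run was present in *Rps26*, *Rps6*, *Rpl36a*, *Rpl22l1* and *Rpl6*, and no such run began within 10 bases of the start in *Rps28*, *Rpl41* or *Rplp0*. Among these 8, genes with a fall in E6 and genes without one thus occurred on both sides. The 2 without a fall both lie on chromosome 5, where the median log2 FC of 640 genes was 0.35 before adhesion.

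Over all members, 66 had an entry in the promoter table, and 60.6% of them held such a run within 10 bases of an annotated start, against 34.4% of 27025 genes in the table. Within 3 bases, the shares were 39.4% and 13.5%. On the opposite strand, the same run was found in 24.2% of the members and 38.5% of all genes. The letters CGGAAGT, on either strand within the 300 bases of the entry, were held by 34.9% of the members and 7.2% of all genes, and this motif resembles the binding site of ETS factors. A match is a description of the letters, not evidence of a site in use. The 35 tested genes with the pyrimidine run had a median log2 FC of -0.37 in E6 before adhesion, and the 25 without it one of -0.33.

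After adhesion, the comparison of E6 with WT depended on which WT library was used. With both, 65 of the 79 genes were below 0, with a median log2 FC of -0.18, against 51.9% of all tested genes and a median of -0.02. Both E6 libraries were below both WT libraries for 20 genes (25.3%), the same share as the 25.3% of all tested genes. Without replicate 1 of WT after adhesion, all 79 were below 0, with a median of -0.53, and 78 (98.7%) had both E6 libraries below the remaining WT library, against 44.5% of all tested genes. Without replicate 2 instead, the median was 0.27 and 22 genes were below 0.

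By edgeR's quasi-likelihood test, 4 of the 79 genes (5.06%) were called lower in E6 after adhesion, against 4.06% of all tested genes. When replicate 1 of WT after adhesion was left out, 30 were lower and none higher (38.0%, against 15.6% of all tested genes called in either direction). Without replicate 2 of WT after adhesion, 19 were higher and 4 lower (29.1%, against 37.8% of all tested genes). The 4 genes were *Rps26*, *Rpl17*, *Rpl36a* and *Rps28*, which were also among the 5 called before adhesion. The 2 comparisons use different libraries.

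Their log2 FCs after adhesion were -0.77 for *Rps26* (SE 0.13, FDR = 0.0162 by edgeR), -0.76 for *Rpl17* (SE 0.11, FDR = 0.0098 by edgeR), -0.73 for *Rpl36a* (SE 0.14, FDR = 0.0235 by edgeR) and -0.67 for *Rps28* (SE 0.12, FDR = 0.0209 by edgeR). A further 4 genes passed the FDR but not the FC limit, which made 8 in all (10.1%, against 4.67% of all tested genes). The largest of these changes was that of *Rps6*, whose protein is the best known substrate of the S6 kinases, with a log2 FC of -0.55 (SE 0.11, FDR = 0.0266 by edgeR). Its level was 428 and 448 CPM in WT before adhesion, 468 and 425 in WT after adhesion, 331 and 349 in E6 before adhesion and 308 and 303 in E6 after adhesion. The E6 libraries were all below the WT libraries, and replicate 1 of WT after adhesion was not low for this gene. *Rpl23a*, *Rps4x* and *Rpl23* followed, with log2 FCs of -0.53, -0.52 and -0.46.

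Averaged over both states, 72 of the 79 genes were below 0 in E6 relative to WT, with a median log2 FC of -0.26. At an FDR under 0.05 by edgeR, 19 genes (24.1%) were lower and 0 higher, against 10.7% and 10.3% of all tested genes. With the FC limit, 6 (7.59%) were lower, against 6.13% of all tested genes. Without replicate 1 of WT after adhesion, 14 were lower with the FC limit and 0 higher (17.7%, against 13.2% of all tested genes), and without replicate 2, 4 were lower and 3 higher (8.86%, against 21.4%). All 4 E6 libraries were below all 4 WT libraries for 15 genes (12 on the library total), against 15.5% of all tested genes, and without replicate 1 of WT after adhesion for 69 (87.3%, against 24.1%). The 19 genes comprised 7 of the 40S subunit, 11 of the 60S subunit and 1 paralog. At an unadjusted p under 0.05, 30 were lower and 0 higher (38.0%, against 35.3% of all tested genes).

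In this average, *Rps26* had a log2 FC of -0.81 (SE 0.09, FDR = 0.00186 by edgeR), *Rpl36a* of -0.73 (SE 0.10, FDR = 0.00372 by edgeR) and *Rpl17* of -0.71 (SE 0.08, FDR = 0.00153 by edgeR). These 3 calls held in all 8 fits that left out a library. *Rpl41*, whose protein lies between the subunits, had 550 and 592 CPM in WT before adhesion, 370 and 645 in WT after adhesion, 325 and 360 in E6 before adhesion and 334 and 305 in E6 after adhesion. Its lowest WT library was slightly above its highest E6 library on this scale but below it on the library total (347 against 355 CPM). Its log2 FC was -0.70 (SE 0.17, FDR = 0.0262 by edgeR). This call was lost in most of the 8 fits that left out a library. Its log2 FC ranged from -0.86 to -0.46 over these fits. The value of -0.46, without replicate 2 of WT after adhesion, missed the FC limit.

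**Figure D4:**
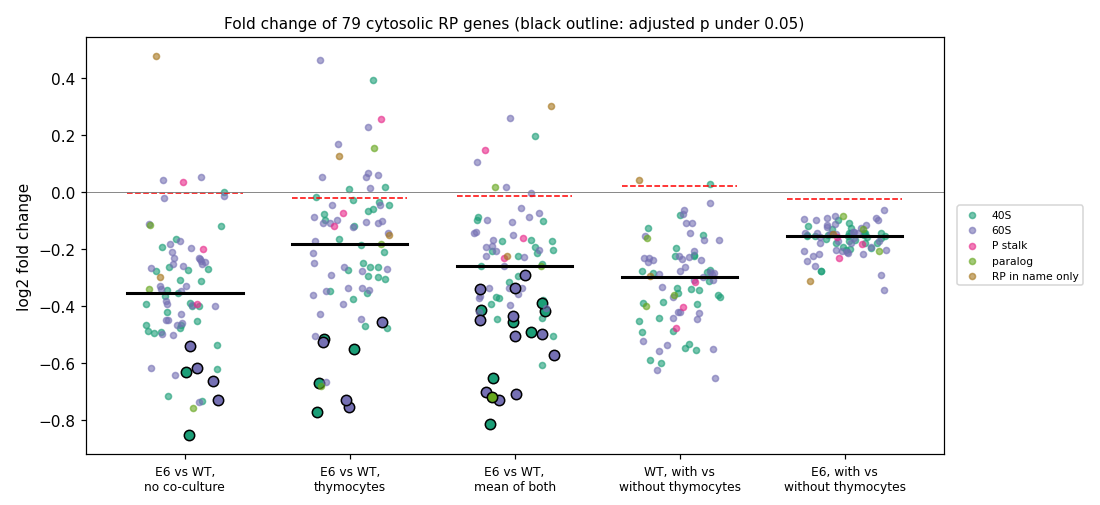
Log2 FC of 79 RP genes in 5 comparisons (x axis), coloured by class, with a black outline where the FDR was under 0.05, a black line at the median of the members and a red dashed line at the median of all tested genes. The median of the members lies below that of all genes in each comparison, at -0.35, -0.18 and -0.26 for E6 against WT and at -0.30 and -0.16 for after against before adhesion, and the outlined genes occur only in the comparisons of E6 with WT.

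The genes of the P stalk, which recruits the elongation factors to the ribosome, did not pass the test. *Rplp0*, the base of the stalk, had 1662 and 1642 CPM in WT before adhesion, 780 and 1715 in WT after adhesion, 1681 and 1707 in E6 before adhesion and 1479 and 1504 in E6 after adhesion. Before adhesion its E6 libraries were slightly above its WT libraries, unlike most RP genes. Its averaged log2 FC was 0.15 (FDR = 0.681 by edgeR), with -0.23 for *Rplp1* and -0.16 for *Rplp2*, the proteins of the flexible part of the stalk. *Rplp1* had 1122 and 1159 CPM in WT and 926 and 813 in E6 before adhesion, and 370 CPM in replicate 1 of WT after adhesion.

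*Rps27a*, which encodes a fusion of ubiquitin and a 40S protein, had an averaged log2 FC of -0.20 (FDR = 0.449 by edgeR). *Rpl5* and *Rpl11*, whose proteins bind MDM2 together with the 5S rRNA when ribosome assembly is disturbed, had averaged log2 FCs of -0.10 and -0.19. Neither passed the test, with FDRs of 0.502 and 0.391 by edgeR. *Rps19bp1*, which encodes a protein binding RPS19, was on the opposite side, with 13.8 and 15.5 CPM in WT before adhesion and 18.9 and 21.9 in E6 before adhesion. The libraries did not overlap, but its log2 FC of 0.48 did not pass the test (SE 0.20, FDR = 0.23 by edgeR). *Rpl7l1*, related to *Rpl7*, had a log2 FC of -0.30 before adhesion.

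Some RP genes have a paralog that can be used in its place, and for these the share of the paralog in the counts of the pair was computed. *Rpl36al* held 44.9% and 43.6% of the *Rpl36a* and *Rpl36al* counts in WT before adhesion and 37.9% and 41.4% in WT after adhesion. In E6 it held 54.6% and 55.1% before adhesion and 56.2% and 54.1% after adhesion. The 4 E6 values were above all WT values, while *Rpl36al* itself had an averaged log2 FC of 0.02 (FDR = 0.947 by edgeR). The 2 genes encode near-identical proteins, and how the counting split reads between them is uncertain.

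*Rpl22l1* was among the genes lower in E6 on average, with a log2 FC of -0.72 (SE 0.14, FDR = 0.0133 by edgeR). This call was lost in most of the 8 fits that left out a library. Its log2 FC ranged from -0.82 to -0.58 over these fits, just short of the FC limit without replicate 2 of WT after adhesion. Its level was 34.3 and 29.8 CPM in WT before adhesion, 24.1 and 33.1 in WT after adhesion, 16.6 and 21.3 in E6 before adhesion and 18.4 and 17.3 in E6 after adhesion. The E6 libraries were all below the WT libraries. It held 11.6% to 12.8% of the pair with *Rpl22* in the WT libraries and 8.63% to 10.4% in the E6 libraries. *Rpl22* itself had an averaged log2 FC of -0.34 (FDR = 0.109 by edgeR). *Rps27l* took 96.8% to 98.3% of the counts of its pair with *Rps27*, whose own counts were few. The paralogs *Rpl10l*, *Rpl39l* and *Rps27rt* had 0 counts, and *Rpl3l* and the annotated pseudogene *Rps4l* at most 5 counts in a library.

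The FC in E6 differed between chromosomes. The 640 genes tested on chromosome 5 with enough counts had a median log2 FC of 0.35 in E6 before adhesion, and the 461 genes on chromosome 10 had a median of -0.33. The 5 RP genes on chromosome 5, *Rpl21*, *Rpl5*, *Rpl6*, *Rpl9* and *Rplp0*, had a median of 0.04, and the 4 on chromosome 10, *Rpl41*, *Rps12*, *Rps15* and *Rps26*, had one of -0.73. *Rpl6*, *Rpl9* and *Rplp0* were 3 of the 4 RP genes above 0, the other being *Rps19bp1*. *Rps26* lies at chr10:128624534-128626747 on the minus strand (GRCm38), and *Rpl41* at chr10:128548114-128549305 on the minus strand. What the levels of whole chromosomes contribute to these values was not tested. The 70 RP genes on other chromosomes had a median of -0.36, and 69 of them were below 0. After subtraction of the median of its own chromosome, 78 of the 79 genes were below 0, with a median of -0.36 and *Rpl17* lowest at -0.73.

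**Figure D5:**
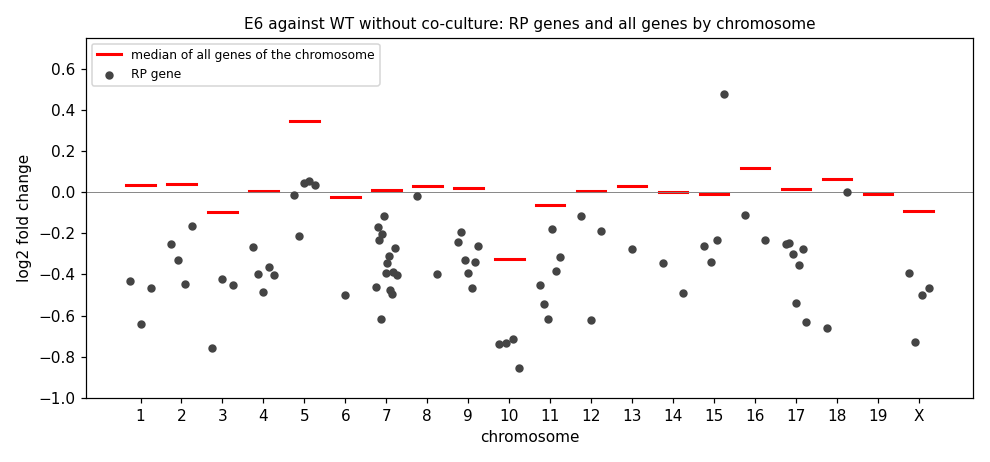
Log2 FC of E6 against WT before adhesion for 79 RP genes (points), by chromosome (x axis), with the median of all genes of the chromosome as a red line. The 5 RP genes of chromosome 5 (median 0.04) lie higher and the 4 of chromosome 10 (median -0.73) lower than most others, and on most chromosomes the points are below the red line.

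In WT, adhesion of thymocytes gave no RP gene past the test. At an FDR under 0.05 by edgeR's quasi-likelihood test, 0 of the 79 genes were called (0.0% of all tested genes), 2 (*Rpl7* and *Rps27l*, 2.53% against 7.48% of all tested genes) had an unadjusted p under 0.05, and DESeq2 called 0. The median log2 FC was -0.30, with 77 genes below 0, but the 2 libraries after adhesion went different ways. Without replicate 1 of WT after adhesion, the median was 0.02 with 34 genes below 0, and without replicate 2 it was -0.74 with 51 genes called (64.6%, against 3506 of all 11672 tested genes). Both libraries after adhesion were below both before for 25 genes (31.6%, against 14.5% of all tested genes). Set against both libraries before adhesion, replicate 2 alone was lower for 26 genes (37.3% of all tested genes) and higher for 36 (39.9% of all tested genes).

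The 3 genes whose level ranged most widely over the 8 libraries owed this to replicate 1 of WT after adhesion. *Rps14*, a 40S protein gene, had 43.9 CPM in it and 189 to 252 in the other 7 libraries, a range of 2.52 on the log2 scale that became 0.42 without it. *Rpl37a* and *Rpl36*, both of the 60S subunit, had ranges of 2.09 and 2.08, which became 0.83 and 0.68. The narrowest ranges were those of *Rpl24* (0.37), *Rpl21* (0.44) and *Rpl14* (0.46), all of the 60S subunit. GC content of the RP genes had a median of 50.7%, against 50.2% over all tested genes.

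In E6, adhesion of thymocytes came with slightly lower counts of every tested RP gene, but no gene passed the test with all libraries. The log2 FC was below 0 for 79 of 79 genes, with a median of -0.16, a range of -0.34 (*Rpl13*) to -0.06 (*Rpl5*), and 55.3% of all tested genes below 0 (median -0.02). A fall of this size was not particular to them. Of the 77 mitochondrial RP genes, 71 were below 0, with a median of -0.16. So were 33 of 36 genes that build ribosomes (median -0.11) and 17 of 21 other translation genes (-0.12). Of 18 regulators of RP genes and of the mTOR pathway, 9 were below 0 (-0.00). Both libraries after adhesion were below both before for 74 genes (93.7%), against 31.5% of all tested genes. By edgeR's quasi-likelihood test, 0 of the 79 had an FDR under 0.05 (2.0% of all tested genes did, and 0.0771% were lower), 0 had an unadjusted p under 0.05 (6.97% of all tested genes did), and DESeq2 called 0. Without replicate 1 of WT after adhesion, which enters only through the shared spread, 19 were lower at an FDR under 0.05 by edgeR, with 11.5% of all tested genes called in either direction, and 0 of them reached the FC limit. The thymocyte markers rose from at most 3.24 CPM to 126 and 157 CPM in the same libraries, and their part in the RP values was not tested.

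Averaged over both cell types, all 79 genes were below 0, with a median of -0.23, and both edgeR and DESeq2 called 0 of them at an FDR under 0.05 (2.0% of all tested genes by edgeR), with 2 (*Rpl7* and *Rps27l*, 2.53% against 9.89% of all tested genes) at an unadjusted p under 0.05. All 4 libraries after adhesion were below all 4 before for 3 genes, *Rpl9*, *Rpl6* and *Rpl21*, against 1.7% of all tested genes. The test of the difference between the adhesion effects in E6 and in WT called 0 of the 79 genes (0.0% of all tested genes), with 0 at an unadjusted p under 0.05 by edgeR (2.54% of all tested genes) and 0 calls by DESeq2. The median difference was 0.16 with all libraries and -0.14 without replicate 1 of WT after adhesion, so that its sign rested on that library. Without that library *Rpl13* had a log2 difference of -0.70 and was the 1 member called with the FC limit (1.27%, against 1.2% of all tested genes).

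Other genes of the translation machinery were compared in the same way, at an FDR under 0.05 by edgeR without the FC limit. Of 21 genes outside the RP families whose mRNAs are known or thought to be controlled like those of the RPs, all 21 were below 0 in E6 before adhesion, with a median log2 FC of -0.37. Of these, 1 passed the FDR, *Naca*, a chaperone subunit at the tunnel exit, with -0.61 (FDR = 0.0417 by edgeR). It also reached the FC limit, and 2.56% of all tested genes were called lower on these terms. In the fit without replicate 1 of WT after adhesion, the median was -0.37 before adhesion and -0.405 averaged over both states. With all libraries, 7 were lower and 0 higher on average, against 10.7% and 10.3% of all tested genes, and 2 of the 7 reached the FC limit. Among these 7, *Eef1a1*, which brings the aminoacyl-tRNA, had -0.44, *Eef2*, which moves the ribosome along the mRNA, had -0.62, and *Eif3e*, *Eif4b*, *Naca*, *Btf3* and *Nap1l1* were the other 5. The level of *Eef1a1* was 14550 and 14200 CPM in WT and 10130 and 10370 CPM in E6 before adhesion. After adhesion, with all libraries, *Btf3* and *Nap1l1* were lower, and *Vim*, which thymocytes also express, was higher, at 3.23 and 3.88 CPM in E6 against 0.922 and 0.871 CPM in WT (FDR = 0.0172 by edgeR). Of all tested genes, 4.67% were lower after adhesion with all libraries. Without replicate 1 of WT after adhesion, the median of the 21 genes after adhesion was -0.39.

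The genes that build ribosomes in the nucleolus had a median above 0 in E6 before adhesion. Of 36 such genes, 13 were below 0 in E6 before adhesion, with a median of 0.10, and 0 passed the FDR. Averaged over both states, *Rrp12*, an export factor of pre-ribosomes, passed with all libraries, with a log2 FC of 0.39 (FDR = 0.0124 by edgeR). Thus 1 biogenesis gene was higher and 0 were lower, against 10.3% and 10.7% of all tested genes. The median on average was 0.04 with 16 of the 36 below 0, and 0.14 without replicate 1 of WT after adhesion. After adhesion it was -0.01 with 18 below 0, and 0.10 without that replicate. The 77 mitochondrial RP genes had a median of -0.00 before adhesion with 39 below 0. Of these, 1 gene, *Mrpl47*, was lower at the FDR and the FC limit, against 2.56% of all tested genes. On average, 5 of the 77 were lower and 1 was higher at the FDR (3 and 0 with the FC limit). Of all tested genes, 10.7% were lower and 10.3% higher at the FDR, and 6.13% lower with the FC limit. After adhesion, the 77 mitochondrial RP genes had a median of -0.06 with 43 below 0 when all libraries were used. Without replicate 1 of WT after adhesion, this median was -0.17 with 61 below 0, and their median on average was -0.07. Likewise without it, the medians before adhesion were 0.10 for the biogenesis genes and -0.00 for the mitochondrial RP genes. The median of the cytosolic RP genes before adhesion was between -0.38 and -0.32, whichever library was left out.

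The 18 tested regulators of RP genes and of the mTOR pathway had a median log2 FC of -0.08 in E6 before adhesion. Without replicate 1 of WT after adhesion it was -0.09. With all libraries, 1 of the 18 was called lower before adhesion, against 2.56% of all tested genes. This was *Ddit4*, an inhibitor of mTOR complex 1, at 165 and 182 CPM in WT and 54.6 and 27.0 CPM in E6 before adhesion, with a log2 FC of -2.09 (SE 0.45, FDR = 0.0434 by edgeR). On average over both states, *Ddit4* fell by 2.30 on the log2 scale, and *Sesn1* passed the FDR but not the FC limit, with -0.57. These were 2 of the 18 regulators at the FDR, against 10.7% of all tested genes lower. Without replicate 1 of WT after adhesion, the median of the 18 on average was -0.06. *Myc*, an activator of RP transcription, had 378 and 386 CPM in WT and 499 and 400 CPM in E6 before adhesion and did not pass the test. Of 4 tested genes of the p53 pathway, *Mdm2* fell on average over both states (log2 FC of -0.89), while *Trp53* (-0.39) and *Cdkn1a* (0.34) passed the FDR but not the FC limit. At the FDR, 10.7% of all tested genes were lower and 10.3% higher on average. The median of the 4 genes on average was -0.22, and -0.16 without replicate 1 of WT after adhesion.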

How the data were processed

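RNA-Seq counts were analysed for the 8 libraries described above, grouped by the titles and source names of the samples, with 2 libraries in each of 4 conditions. Per the submitters' processing notes, the authors aligned reads to mm10 with STAR 2.5.0a and counted them per gene with HTSeq, and the deposited values are raw counts without normalization. The gene annotation and the strand setting of the counting are not given in the sources used here, so that reads of a gene and of an overlapping gene on the other strand cannot be told apart. HTSeq's rows for alignments on no gene, on several genes or at several places were left out of library sizes and tests, and took 21.2% to 33.3% of the alignments. In replicate 1 of E6 before adhesion, 18 symbols that had been turned into dates were restored from the gene order, and none was an RP gene. The 7 rows whose names mark an RP pseudogene were not members, whereas *Rps4l*, a pseudogene by its annotation only, was.

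Counts were fitted with R 4.3.3 and edgeR 4.0.16 (filterByExpr by condition, TMM scaling, quasi-likelihood test, 1 mean per condition, all 8 libraries) over 11672 genes. There were 7 contrasts: E6 against WT in either state and averaged, adhesion (after against before) in either cell type and averaged, and the interaction of cell type and adhesion. Genes were called at a Benjamini-Hochberg FDR below 0.05 with an FC of 1.5 or more, unless the FDR alone is named. SEs are the absolute log2 FC divided by the square root of F. Log2 CPM used a prior count of 2. The study used DESeq2, and DESeq2 1.42.0 was run as an alternative. Per library, 3 counts correspond to 0.149 to 0.222 CPM, which covers counting error only. Gene positions, GC content and lengths came from GENCODE vM21 on GRCm38, with 87 of 87 members matched. Chromosome medians used genes whose log2 CPM averaged 2 or more. Start sequences came from RefSeq promoter entries of 300 bases. The fit was tested on simulated counts with known changes. These had the same spread for all genes and no library that stood apart. They therefore do not show how the fit deals with replicate 1 of WT after adhesion.

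Members and gene lists were chosen with earlier results of these data known. Named were, in each contrast, up to 5 members per direction with an FDR under 0.05, the paralog pairs, the P stalk, *Rps27a*, the 3 highest and 3 lowest per kb, the 3 widest and 3 narrowest in range, the genes that are RP genes only in name, *Rpl5*, *Rpl11* and members with few counts. Other genes were named after their values were seen, where they made up a small count or shared a chromosome. Alternatives were RLE size factors, DESeq2, no filter on low counts, no FC limit, a replicate block, culture time as a covariate, a correction for GC content (lowess with a span of 0.3, limma 3.58.1) alone or with the block, scaling to the members, only the 4 libraries compared and each library left out. The levels per kb of coding sequence, CPM on the library total for the members and the values of gene lists and of non-overlapping libraries without replicate 1 of WT after adhesion were added after seeing the data. Tables and figures were made in Python 3.11.15 (pandas 2.3.3, numpy 2.4.6, matplotlib 3.10.9).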

Additional observations from a re-analysis of the deposited data

Results flagged for a closer look

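In several RP measures 1 of the 4 libraries of a cell type lay far from the other 3, by a gap that exceeded Dixon's 95% limit for its share of the whole range of the 4, which chance alone gives in about 1 of 20 groups of 4. In WT this was always replicate 1 of WT after adhesion, which was low. Its gap made up 0.902 of the range for the share of counts on the members (2.51%). Among the named genes it made up 0.906 for *Rpl10* (258 CPM), 0.908 for *Rpl11* (380 CPM), 0.858 for *Rpl36* (61.2 CPM) and 0.888 for *Rpl37a* (46.7 CPM). It made up 0.922 for *Rplp0* (780 CPM), 0.837 for *Rplp1* (370 CPM), 0.847 for *Rps14* (43.9 CPM) and 0.831 for *Rps27a* (234 CPM). Over all 79 tested members, 36 exceeded the limit in WT, all through this library, against 19.5% of all tested genes. In E6, 1 of the 79 exceeded it, against 4.47% of all tested genes. This was *Rps28*, high in replicate 1 of E6 before adhesion (170 CPM), with a gap of 0.942 of the range.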

How the results depend on the processing

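E6 against WT before adhesion gave 5 called members, all lower. The count was 8 with DESeq2, 2 with the replicate block, 2 with culture time as a covariate, 9 with the GC correction alone or with the block, 12 with only the 4 libraries compared and 0 when libraries were scaled to the members themselves. After adhesion, 4 members became 8 without the FC limit, 7 with the GC correction alone or with the block, and 0 with only the 4 libraries compared or when scaled to the members. On average, 6 became 19 without the FC limit and 0 when scaled to the members. That scaling removes a shift shared by all members by construction, and the median log2 FC became -0.012 before adhesion, 0.019 on average and -0.0066 for adhesion averaged over the cell types. Of the 15 named results with an FDR under 0.05, some below the FC limit, 15 held with DESeq2, RLE size factors or no filter. Here, held means the same sign and an FDR under 0.05, without the FC limit. The number was 14 with the GC correction, 12 with culture time, 11 with the block and 2 when scaled to the members, and 0 reversed. With 1 library left out, 15 held without either library of WT after adhesion, but only 3 to 7 without 1 of the other 6. Without replicate 2 of WT after adhesion, 3 log2 FCs fell short of the FC limit. These were *Rpl36a* after adhesion (-0.51), *Rpl41* on average (-0.46) and *Rpl22l1* on average (-0.58). The cause of these changes was otherwise not tested. Taken over all alignments, the member shares were 3.32% in WT and 2.62% in E6 before adhesion, and E6 had 2.38% after it. With 1 library left out, which leaves 1 condition with a lone library assumed to vary like the others, the count ranged from 0 to 12 before adhesion, from 0 to 30 after adhesion, from 4 to 14 on average, from 0 to 51 for adhesion in WT, from 0 to 0 in E6, from 0 to 21 averaged and from 0 to 40 for the difference. The median log2 FC ranged from -0.38 to -0.32, from -0.53 to 0.27, from -0.44 to -0.021, from -0.74 to 0.020, from -0.19 to -0.13, from -0.45 to -0.057 and from -0.14 to 0.60 in the same order. Leaving out replicate 1 or replicate 2 of WT after adhesion gave both extremes of the median in every contrast that uses that condition. On CPM scaled to the library total, added after seeing the data, E6 was below WT without overlap for 72 members before adhesion and 12 over both states, against 70 and 15 with TMM. Whether the shared replicate numbers pair the samples cannot be decided from 2 libraries in each condition. Over all genes with enough counts, correlations of deviations were 0.22 for the WT conditions, -0.08 for the E6 conditions and -0.05 to 0.02 for the others. Over the members they ranged from -0.41 for the E6 conditions to 0.31 for WT and E6 after adhesion.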
